A study of Mus musculus with 2 samples.

Results

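The 10 circadian clock genes Arntl, Clock, Per1, Per2, Per3, Cry1, Cry2, Nr1d1, Nr1d2 and Dbp were followed through 2 RNA-seq libraries of mouse mammary gland. They were taken by gene symbol from the gene tables, where they are 10 of 43346 genes, and from the transcript tables, where they account for 29 of 103639 transcripts. Both libraries were made from poly(A)-selected RNA of C57BL/6J mice, an inbred strain, aged 8 weeks, and the labels call them biological replicates 1 and 2 of 1 group. Each is labelled as RNA pooled from male and female littermates with an unknown health state, so the mammary tissue of both sexes is mixed in every value. No genotype, treatment or contrast is given, and the sources used here do not give the reproductive state of the animals or the time of day of collection. Both replicates carry the same donor label, and the spread between them may be technical in part. The summed expected counts, the estimated fragments assigned to genes, were 56323489 in replicate 1 and 42400470 in replicate 2.

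The circadian clock is a transcriptional loop that runs in nearly every cell of the body. The activators BMAL1, the product of Arntl, and CLOCK bind E-boxes as a pair and switch on the Per and Cry genes, whose proteins return to the nucleus and block the pair. A second loop is formed by the nuclear receptors REV-ERBα and REV-ERBβ, the products of Nr1d1 and Nr1d2, which repress Arntl through elements that the ROR receptors activate. DBP, a D-box factor switched on by the activators, passes the rhythm on to further genes. In mouse tissues the transcripts of Arntl and of Dbp, Nr1d1 and the Per genes peak at different times of day, so their levels depend on the hour of collection.

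All 10 genes passed 1 TPM (the deposited level, corrected for transcript length and library size) in both libraries. Nr1d1 was the highest and Arntl the lowest by mean. Arntl stood at 5.25 ± 0.820 TPM, Cry1 at 5.89 ± 4.38, Per2 at 8.83 ± 1.27, Clock at 12.0 ± 3.91 and Per3 at 14.9 ± 0.332 TPM (mean ± SD, n = 2 for all these values). Above them came Nr1d2 at 15.0 ± 8.11, Cry2 at 27.4 ± 0.339, Per1 at 28.3 ± 8.24, Dbp at 73.3 ± 42.9 and Nr1d1 at 159 ± 13.0 TPM. The values of neighbours in this order overlapped in 6 of 9 pairs. They did not overlap between Nr1d1 and Dbp, between Dbp and Per1, or between Cry2 and Nr1d2. Together the 10 genes summed to 316 TPM in replicate 1 and 384 TPM in replicate 2, of which Nr1d1 alone gave 53.3% in replicate 1 and 39.1% in replicate 2. By scaled counts, Cry1 and Dbp differed between the libraries by more than counting error and a factor of 2, both with higher levels in replicate 2. Dbp lost this call when a trend with GC content was removed, and by TPM Nr1d2 passed 2-fold too.

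**Figure D1:**
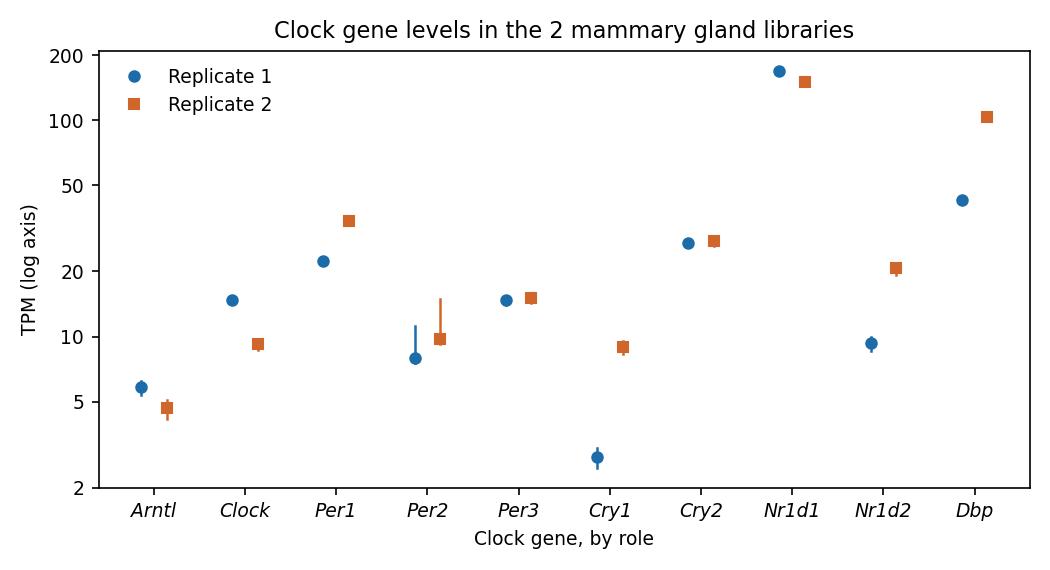
TPM of each clock gene in replicate 1 (circles) and replicate 2 (squares) on a log axis, with bars for the authors' deposited interval of each estimate, which lies almost wholly above the point for Per2. Nr1d1 is above the other 9 genes in both libraries, and Cry1, Nr1d2 and Dbp show the widest gaps between the libraries.

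The mammary gland label was checked against marker genes. Of 8 luminal epithelial markers, 8 were above 1 TPM in each library, and they summed to 1016 TPM in replicate 1 and 1904 TPM in replicate 2. The 10 white adipocyte markers did so too, at 21227 TPM in replicate 1 and 37345 TPM in replicate 2. Of these sums Cfd alone gave 13596 TPM in replicate 1 and 29051 TPM in replicate 2. By scaled counts 5 of the 10 were higher in each library, at a median log2 ratio of 0.04. The libraries differed in other tissue. The 14 skeletal muscle markers summed to 31306 TPM in replicate 1 and 23.3 TPM in replicate 2, where 6 of them stood at 1 TPM or more. The 15 mitochondrially encoded genes at a mean of 1 TPM or more were all over 2-fold higher in replicate 1, against 9.43% of all genes tested. Their median GC content of 36.0% lies on the side of the GC trend that is higher in replicate 1. In bulk tissue, fewer cells of a type and less RNA per cell cannot be told apart.

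Among the activators, Arntl and Clock were both somewhat higher in replicate 1. Arntl (ENSMUSG00000055116.7, chromosome 7, 113207465 to 113314126 on mm10, plus strand), which encodes BMAL1, stood at 5.83 TPM in replicate 1 and 4.67 TPM in replicate 2, from 677 and 386 expected counts. The deposited intervals of these 2 estimates did not overlap. Scaled by the summed counts, the log2 ratio of replicate 1 over replicate 2 was 0.40, with a 95% Clopper-Pearson interval of 0.22 to 0.59 that covers counting error only, as do all such intervals here. Clock (ENSMUSG00000029238.8, chromosome 5, 76209868 to 76304792, minus strand), which encodes the partner of BMAL1, stood at 14.7 TPM in replicate 1 and 9.20 TPM in replicate 2, from 4617 and 2055 counts. Its log2 count ratio was 0.76 (0.68 to 0.83). Within each library Clock was the higher of the pair, at 2.53 times the TPM of Arntl in replicate 1 and 1.97 times in replicate 2. Both genes have a single transcript in the tables, so neither value depends on how reads were shared among isoforms.

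The proteins of the loop act through short motifs in promoters, and the windows of 4 members are shown because they hold matches to the E-box, the D-box or the ROR element. Each window runs from 250 bases before to 50 bases after a RefSeq start on GRCm38.p6, 5′ to 3′ on the gene's strand. A total of 13 windows matched 9 of the genes by symbol, all but Per2. The search used 6 motifs on both strands: the E-box CACGTG, its variant CACGTT, the D-boxes TTATGTAA and TTACGTAA, the ROR element core TAGGTCA and the cAMP response element TGACGTCA. No pair of these motifs overlapped in the windows shown, and capitals mark each match.
Cry1 (chr10:85185005-85185304, minus strand): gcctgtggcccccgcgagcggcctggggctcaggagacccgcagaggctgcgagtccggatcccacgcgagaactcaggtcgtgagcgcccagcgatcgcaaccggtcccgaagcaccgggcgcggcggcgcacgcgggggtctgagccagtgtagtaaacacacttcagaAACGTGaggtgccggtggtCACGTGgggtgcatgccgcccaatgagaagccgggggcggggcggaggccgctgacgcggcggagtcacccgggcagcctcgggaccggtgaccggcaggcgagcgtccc
Per1 (chr11:69098699-69098998, plus strand): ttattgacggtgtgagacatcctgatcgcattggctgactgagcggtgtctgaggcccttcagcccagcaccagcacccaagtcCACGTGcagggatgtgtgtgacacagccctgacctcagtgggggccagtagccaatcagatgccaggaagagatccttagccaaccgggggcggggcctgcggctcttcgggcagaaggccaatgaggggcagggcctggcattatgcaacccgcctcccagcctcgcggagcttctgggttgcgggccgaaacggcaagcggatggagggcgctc
Per3 (chr4:151044616-151044915, minus strand): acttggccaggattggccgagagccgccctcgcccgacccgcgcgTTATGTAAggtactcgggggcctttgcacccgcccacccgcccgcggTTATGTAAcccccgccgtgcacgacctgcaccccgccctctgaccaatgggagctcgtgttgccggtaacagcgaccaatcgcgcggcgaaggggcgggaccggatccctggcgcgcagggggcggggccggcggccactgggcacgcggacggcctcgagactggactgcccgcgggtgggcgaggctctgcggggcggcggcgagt
Arntl (chr7:113207261-113207560, plus strand): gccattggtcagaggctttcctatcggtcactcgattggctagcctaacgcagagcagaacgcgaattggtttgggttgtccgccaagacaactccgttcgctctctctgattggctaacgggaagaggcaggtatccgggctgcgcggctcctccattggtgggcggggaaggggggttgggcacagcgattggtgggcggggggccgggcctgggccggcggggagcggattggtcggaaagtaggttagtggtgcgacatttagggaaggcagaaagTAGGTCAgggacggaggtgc
The E-box, bound by BMAL1 and CLOCK, began 60 bases before the Cry1 start and 166 bases before this Per1 start. It occurs in 7.15% of all 32851 promoter windows of the table. The variant CACGTT occurs in 4.68% of windows and was found, as AACGTG on the gene's strand, 79 bases before the Cry1 start, 166 bases before that of Cry2 and 28 bases before that of Nr1d1. The D-box TTATGTAA, the kind of site that DBP binds, began 205 and 158 bases before the Per3 start, in a motif held by 0.938% of windows. The core TAGGTCA, which ROR and REV-ERB receptors bind, began 31 bases into the transcribed side in 1 of 2 Arntl windows and occurs in 2.61% of all windows. Neither TTACGTAA (0.119% of windows) nor the cAMP response element (1.79%) was in a window of these genes. A match describes these letters and not a bound site.

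The period genes differed little between the libraries by count, apart from Per1. Per1 (ENSMUSG00000020893.13, chromosome 11, 69095217 to 69109960, plus strand), a repressor that is also induced acutely by stimuli, stood at 22.4 TPM in replicate 1 and 34.1 TPM in replicate 2, from 3683 and 4282 counts. It was higher in replicate 2, with deposited intervals that did not overlap and a log2 count ratio of -0.63 (-0.69 to -0.56). Immediate early genes, a list of 11, also leaned to replicate 2. They summed to 321 TPM in replicate 1 and 709 TPM in replicate 2, with 9 of 11 higher in replicate 2 and none at 0. Their intervals lay wholly beyond 2-fold in 5, where 8.73% of all tested genes were that much higher in replicate 2, and their median GC content of 55.5% lies on the side of the GC trend that is higher there. Their part in the Per1 difference was not tested.

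Per2 (ENSMUSG00000055866.9, chromosome 1, 91415982 to 91459324, minus strand), a repressor close to PER1 in role, stood at 7.93 TPM in replicate 1 and 9.72 TPM in replicate 2, from 1922 and 1678 counts. The deposited intervals overlapped, and the log2 count ratio was -0.21 (-0.31 to -0.12). Per3 (ENSMUSG00000028957.8, chromosome 4, 151003652 to 151044665, minus strand), the member of the family least needed for the core loop in mice, stood at 14.7 TPM in replicate 1 and 15.2 TPM in replicate 2, from 2493 and 1898 counts. Its log2 count ratio was -0.02 (-0.10 to 0.07), the single interval among the 10 genes that held 0. In TPM, Per1 was the highest of the 3 period genes in both libraries, at 2.83 times Per2 in replicate 1 and 3.51 times in replicate 2.

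The cryptochrome genes, which encode the main repressors of BMAL1 and CLOCK, behaved unlike each other. Cry1 (ENSMUSG00000020038.9, chromosome 10, 85131700 to 85185064, minus strand) stood at 2.79 TPM in replicate 1 and 8.98 TPM in replicate 2, from 337 and 773 counts. It was 3.05-fold higher in replicate 2 by scaled counts, at a log2 ratio of -1.61 (-1.80 to -1.42), the largest difference among the 10 genes. Cry2 (ENSMUSG00000068742.7, chromosome 2, 92403646 to 92434043, minus strand) stood at 27.1 TPM in replicate 1 and 27.6 TPM in replicate 2, from 4241 and 2921 counts. Its deposited intervals overlapped, and its log2 count ratio was 0.13 (0.06 to 0.20), with a TPM difference of the other sign at -0.03. Cry2 was therefore 9.72 times Cry1 in TPM in replicate 1 and 3.07 times in replicate 2. Cry1 stood at 0.479 times the TPM of Arntl in replicate 1 and 1.92 times in replicate 2, so the order of these 2 genes differed between the libraries.

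The receptor genes of the second loop stood far apart in level. Nr1d1 (ENSMUSG00000020889.11, chromosome 11, 98767932 to 98775333, minus strand), which encodes REV-ERBα, stood at 168 TPM in replicate 1 and 150.2 TPM in replicate 2, from 17714 and 11301 counts. Of the genes above 0, 96.8% in replicate 1 and 95.2% in replicate 2 had a lower TPM. Its log2 count ratio was 0.24 (0.20 to 0.27). Nr1d2 (ENSMUSG00000021775.10, chromosome 14, 18204054 to 18239127, minus strand), which encodes REV-ERBβ, stood at 9.30 TPM in replicate 1 and 20.8 TPM in replicate 2, from 1258 and 1214 counts. TPM gave a log2 difference of -1.15, against a log2 count ratio of -0.36 (-0.47 to -0.24). The effective length by which the authors' TPM is divided was 3136 bases for Nr1d2 in replicate 1 and 1901 bases in replicate 2, since its leading transcript differed between the libraries.

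The 3′ end of Nr1d1 lies over 1075 bases of Thra, a thyroid hormone receptor gene on the other strand, which stood at 65.8 TPM in replicate 1 and 123 TPM in replicate 2. The libraries are labelled as stranded, but whether counting used the strand is not stated in the sources used here, so reads of that overlap may have gone to either gene.

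Dbp, the output arm, differed most after Cry1 by scaled counts, on a transcript rich in GC. Dbp (ENSMUSG00000059824.6, chromosome 7, 45705088 to 45710203, plus strand) stood at 42.9 TPM in replicate 1 and 104 TPM in replicate 2, from 2749 and 4916 counts. It was 2.38-fold higher in replicate 2 by scaled counts, at a log2 ratio of -1.25 (-1.32 to -1.18). Relative to genes of equal GC content the ratio was -0.27 (-0.33 to -0.20) and no longer called, a smaller difference than those of Nr1d2, Nr1d1 and Cry2. Set against Arntl in the same library, Dbp stood at 7.37 times its TPM in replicate 1 and 22.2 times in replicate 2. Nr1d1 against Arntl moved less, at 28.9 times in replicate 1 and 32.2 times in replicate 2, and Per1 against Arntl stood at 3.85 times in replicate 1 and 7.30 times in replicate 2. These ratios set GC-rich genes against Arntl, whose transcript holds less GC, and they carry the trend of the libraries with GC content. With that trend removed, the log2 count ratios were -0.27 for Dbp, 0.09 for Per1 and 0.65 for Nr1d1, against -0.03 for Arntl, so Per1 no longer gained on Arntl in replicate 2 and Nr1d1 lay farthest from it. Dbp overlaps the sphingosine kinase gene Sphk2 on the other strand by 737 bases. Sphk2 stood at 37.4 TPM in replicate 1 and 83.0 TPM in replicate 2, and reads of the shared stretch are uncertain in the same way.

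A gene was called different where its whole interval lay beyond 2-fold. Of the 10 genes, 0 were called higher in replicate 1, where 9.43% of all 14510 genes with a mean of at least 1 TPM were, and 2, Cry1 and Dbp, were called higher in replicate 2, against 8.73% of all genes. In either direction 18.2% of all genes were called, so 2 of 10 is near the background and is no result about the clock genes as a group. By scaled counts 4 of the 10 were higher in replicate 1 and 6 in replicate 2, with a median log2 ratio of -0.12, against 0.06 over all genes tested. The deposited TPM intervals overlapped between the libraries for Per2, Per3 and Cry2 and lay apart for the others. How often they lay apart over all genes was not worked out, so this is no result about the clock genes either. With 1 library on each side, no test was possible and no p-value is given. Over 2 libraries any pair of genes correlates at 1 or -1, so no gene was named for a pattern like theirs.

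**Figure D2:**
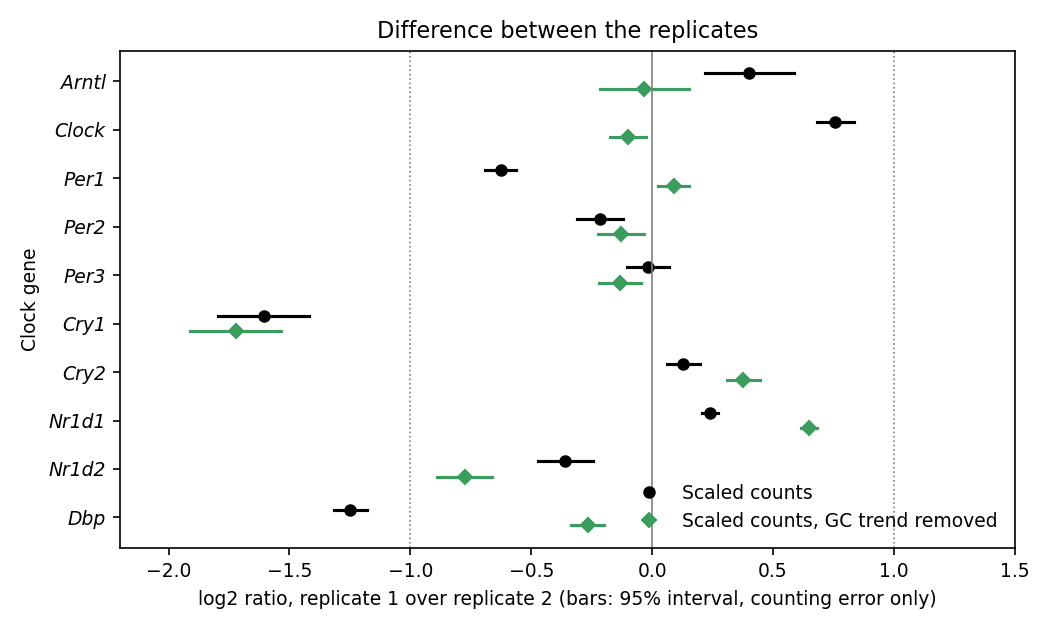
Log2 ratio of scaled counts, replicate 1 over replicate 2, for each clock gene, as counted (circles) and after the median ratio of genes of equal GC content was taken off (diamonds), with 95% intervals for counting error and dotted lines at 2-fold. Cry1 lies beyond 2-fold both ways, whereas Dbp moves inside it from -1.25 to -0.27.

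The differences of Arntl, Clock, Per1 and Dbp lay along a trend with base composition. Over 14387 genes with a known sequence, the log2 ratio fell with the GC content of the most abundant transcript, with a rank correlation (Spearman) of -0.58 that describes genes and not independent samples. The median log2 ratio was 0.97 in the group of lowest GC content among 10 and -0.92 in the highest. Clock, with 42.1% GC, and Arntl, with 48.2%, lie on the side of this trend that is higher in replicate 1. Per1, with 59.4%, and Dbp, with 61.6%, lie on the side that is higher in replicate 2. The cause of the trend was not tested.

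Taking the median at each gene's GC content off its ratio left -0.03 for Arntl, -0.10 for Clock, 0.09 for Per1 and -0.27 for Dbp. These 4 genes then lay within 2-fold with their whole intervals, and the first, with an interval of -0.21 to 0.15, held 0. Per2 and Per3 stood at -0.13 each. Nr1d1 moved outward to 0.65 (0.61 to 0.68) and Cry2 to 0.38 (0.31 to 0.45), both higher in replicate 1 than genes of like composition. Nr1d2 moved to -0.78 (-0.89 to -0.66). Cry1, with 51.6% GC, near the middle of all genes, stood at -1.72 (-1.91 to -1.54) and was the 1 member still called. It was also called under each of the other scalings and filters tried, and Dbp under each except the removal of the GC trend.

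**Figure D3:**
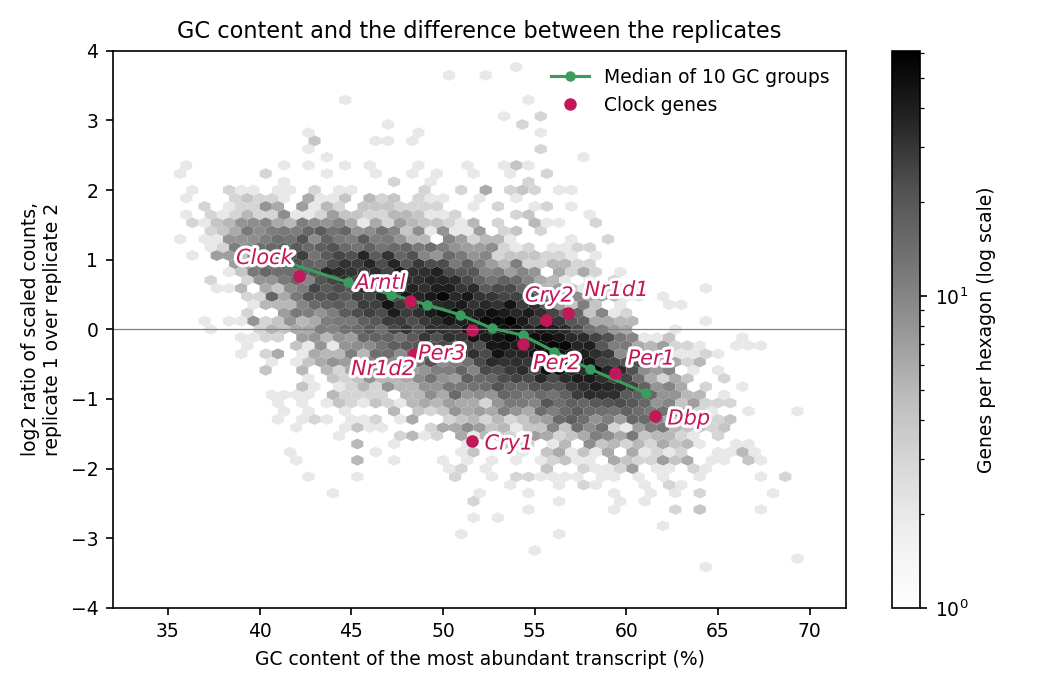
Log2 ratio of scaled counts, replicate 1 over replicate 2, against GC content in percent for all genes (hexagons shaded by the number of genes), with medians of 10 equal groups and the clock genes marked; 222 of 14387 genes lie outside the plotted range. Clock, Arntl, Per2 and Per1 lie close to the line of medians, Nr1d1 and Cry2 above it, and Cry1 and Nr1d2 below it.

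Skeletal muscle, which has a clock of its own, was near absent from replicate 2. With mitochondrially encoded genes and the 14 listed muscle markers left out of the totals, the median over all genes moved from 0.06 to 0.24. Cry1 then stood at -1.43 and Dbp at -1.07, both still called. This step moved every ratio by the same amount, and muscle genes outside the list stayed in the totals. Among the other marker lists, some leaned to replicate 1. These were basal epithelium, with 6 of 7 genes higher in replicate 1, brown adipocytes, which summed to 1626 TPM in replicate 1 and 541 TPM in replicate 2 with 4 of 6 tested genes called higher in replicate 1 against 9.43% of all genes, and keratinocytes, at 104 TPM in replicate 1 and 6.53 TPM in replicate 2 with Krt2 and Flg at 0 in both. Others leaned to replicate 2. Red cells summed to 1709 TPM in replicate 1 and 4424 TPM in replicate 2, with 5 of 5 genes higher in replicate 2. Luminal epithelium had 7 of 8 genes higher in replicate 2 and lymph node stroma 4 of 5, against 6856 of 14510 over all tested genes. Their median GC content of 57.0% and 55.9% lies on the side of the GC trend that is higher there. T cells summed to 311 TPM in replicate 1 and 582 TPM in replicate 2, with 7 of 10 genes higher in replicate 2. In that list Tcf7 and Ccr7 were called, against 8.73% of all genes. Cd3d, Cd3g and Cd28 were slightly higher in replicate 1, with intervals that held 0. B cells summed to 436 TPM in replicate 1 and 773 TPM in replicate 2, with 7 of 8 genes higher in replicate 2. The lists do not cover every tissue, and none was made for liver. Tat, Apoa2, Apoh and Gnmt, which are in no list, were each well over 2-fold higher in replicate 2 by scaled counts. They were picked after their values were seen. The part of the listed tissues, or of any other tissue, in the Cry1 and Dbp differences was not tested.

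The transcript tables split 7 of the 10 genes among several transcripts and give each the share of its gene (IsoPct, in percent). In 8 genes the same transcript was the most abundant in both libraries, and in 7 of those 8 it is protein coding. The exceptions are Per3, whose leading transcript is not coding, and Per1 and Nr1d2, whose leading transcript differed between the libraries. Among the 8, the 3 genes Arntl, Clock and Cry1 have a single transcript, which is coding, and could not differ. All shares are the authors' estimates from reads that transcripts of a gene largely have in common.

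**Figure D4:**
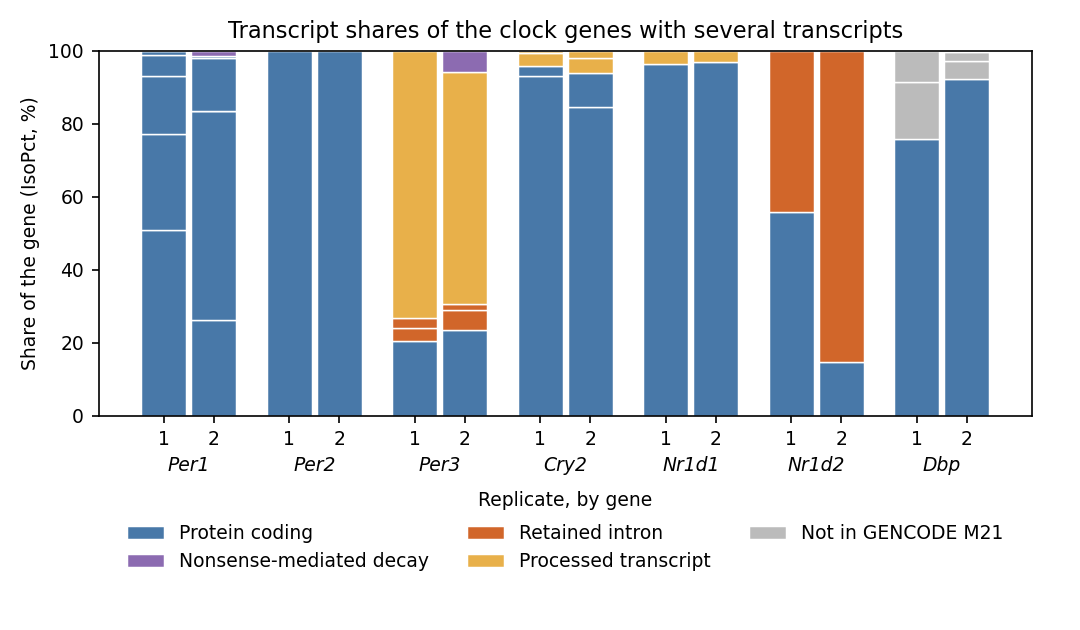
Share of each gene's level in percent taken by its transcripts in replicate 1 (left bar) and replicate 2 (right bar), coloured by GENCODE M21 biotype with white lines between transcripts. The retained-intron share of Nr1d2 is 44.1% in replicate 1 and 85.4% in replicate 2, and a noncoding transcript leads Per3 in both.

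Nr1d2 had a different leading transcript in each library. The protein-coding Nr1d2-201 took 55.9% of the gene in replicate 1 and 14.6% in replicate 2, at 5.20 TPM in replicate 1 and 3.03 TPM in replicate 2. The retained-intron transcript Nr1d2-202 took 44.1% in replicate 1 and 85.4% in replicate 2, at 4.11 TPM in replicate 1 and 17.7 TPM in replicate 2. The deposited intervals of each transcript did not overlap between the libraries. The higher TPM of Nr1d2 in replicate 2 was therefore that of the retained-intron form. The coding form was higher in replicate 1, at a log2 count ratio of 0.86 (0.69 to 1.03) from 998 and 414 counts. The GC content used for Nr1d2, 48.4%, was that of Nr1d2-202, and the gene's ratio of -0.78 with the GC trend removed rests on it. The coding form was not set against genes of like GC content.

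In GENCODE M21 on GRCm38, Nr1d2-202 has 5 exons. It runs 338 bases past the end of exon 5 of the 8 exons of Nr1d2-201, into an intron of 2909 bases, and lacks the last 3 exons, which hold 3225 bases. The edge is shown because it is where the forms part, with the last 30 bases of exon 5 in capitals and the first 30 of the intron in lower case.
Nr1d2 exon 5 edge (chr14:18214844-18214903, minus strand): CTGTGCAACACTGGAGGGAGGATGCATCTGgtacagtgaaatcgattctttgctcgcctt
The intron begins with GT, the usual splice donor. Of the 2 transcripts in the tables, Nr1d2-202 keeps the lower-case bases and Nr1d2-201 does not. Reads of unspliced precursor RNA and of Nr1d2-202 cannot be told apart at this edge.

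Per1 has 6 transcripts, and its leading form also differed, although it was annotated as protein coding in each library. Per1-202, which starts upstream of the others, took 51.0% of the gene in replicate 1 and 26.2% in replicate 2, at 11.4 TPM in replicate 1 and 8.94 TPM in replicate 2. Per1-201, the full-length form, took 26.1% in replicate 1 and 57.3% in replicate 2, at 5.85 TPM in replicate 1 and 19.5 TPM in replicate 2. For both forms the deposited intervals did not overlap between the libraries. By these estimates the higher Per1 level of replicate 2 lay in Per1-201 and, to a lesser extent, Per1-203. Per1-203 took 5.71% in replicate 1 and 14.5% in replicate 2, at 1.28 TPM in replicate 1 and 4.94 TPM in replicate 2, with deposited intervals that overlapped. Per1-206 took 16.0% in replicate 1 and 0.14% in replicate 2, but its deposited TPM intervals overlapped widely. The deposited posterior means gave Per1-201 47.0% and Per1-206 10.7% in replicate 2, so the split between these forms depends on the estimate.

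Per1-202 ends early. It runs 835 bases past exon 18 of the 23 exons of Per1-201, through the whole intron of 829 bases and into exon 19, and so lacks the exons that follow. The edge is printed for comparison with that of Nr1d2, with exon bases in capitals.
Per1 exon 18 edge (chr11:69105594-69105653, plus strand): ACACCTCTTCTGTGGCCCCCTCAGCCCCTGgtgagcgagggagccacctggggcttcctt
Both edges were the point where a shorter form that keeps intron sequence splits from the full-length form. The shorter form took less of Per1 and more of Nr1d2 in replicate 2 than in replicate 1, so the 2 genes did not shift together.

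Per3 was carried mostly by a transcript that is not annotated as coding. Per3-204, a processed transcript over the 3′ part of the gene, took 73.3% in replicate 1 and 63.5% in replicate 2, at 10.8 TPM in replicate 1 and 9.63 TPM in replicate 2. The coding Per3-201 took 20.3% in replicate 1 and 23.4% in replicate 2, at 2.99 TPM in replicate 1 and 3.54 TPM in replicate 2. By coding transcripts alone, Per3 would stand below Arntl in both libraries, where the whole gene stood above it. All 41014 bases of Per3 also lie within Camta1 on the same strand, a transcription factor gene that stood at 7.98 TPM in replicate 1 and 6.97 TPM in replicate 2.

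The remaining genes with several transcripts kept the same coding form in the lead. Dbp-201 took 75.8% in replicate 1 and 92.4% in replicate 2, at 32.6 TPM in replicate 1 and 95.7 TPM in replicate 2. The coding form alone thus differed more than the gene, at a log2 count ratio of -1.47 (-1.55 to -1.40). That ratio carries the GC trend, which stood at -0.98 at the 61.6% GC of this transcript. Another Dbp transcript, ENSMUST00000123587.1, which has no entry in GENCODE M21, took 15.5% in replicate 1 and 4.75% in replicate 2. Cry2-201 took 93.1% in replicate 1 and 84.5% in replicate 2, and Nr1d1-201 took 96.3% in replicate 1 and 97.0% in replicate 2. Per2-201 took all counts of Per2 in both libraries.

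Around the 10 genes, 7 lists of clock components held 43 genes, of which 41 passed a mean of 1 TPM. By scaled counts 25 of these were higher in replicate 1 and 16 in replicate 2, at a median log2 ratio of 0.21 against 0.06 over all genes. A total of 6 of the 41 were called, 2 higher in replicate 1 and 4 in replicate 2, near the share in all genes. Rorb, at 0.08 TPM in replicate 1 and 0.03 TPM in replicate 2, and Fbxl21, at 0.96 TPM in replicate 1 and 0.86 TPM in replicate 2, stayed under the limit. Rorb encodes the ROR receptor known from retina and brain, and Fbxl21 a ubiquitin ligase subunit that acts on cryptochromes.

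Core activators numbered 4, of which 3 were higher in replicate 1 and none was called by scaled counts. Besides Clock, the highest was Arntl2, a paralogue of Arntl, at 7.34 TPM in replicate 1 and 7.44 TPM in replicate 2, although its counts were only 170 and 76. Among the 8 core repressors, 3 were higher in replicate 1 and 5 in replicate 2, with Cry1 and Bhlhe41 called. Bhlhe41, which encodes the E-box repressor DEC2, stood at 13.6 TPM in replicate 1 and 69.2 TPM in replicate 2, a log2 count ratio of -2.47 (-2.53 to -2.41). Its paralogue Bhlhe40 (DEC1) stood at 33.2 TPM in replicate 1 and 28.1 TPM in replicate 2, within 2-fold.

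Of the 4 tested ROR and REV-ERB receptor genes, 3 were higher in replicate 1. Rora was called at a log2 count ratio of 1.13 (1.01 to 1.25), yet its TPM was 12.2 in replicate 1 and 11.4 in replicate 2, with an effective length of 4288 bases in replicate 1 and 2212 bases in replicate 2. Rora was not called with TMM factors or DESeq2 size factors. In both libraries Nr1d1 was above Rora in TPM. The 4 D-box factor genes split evenly in direction. Tef, the paralogue of Dbp, stood at 65.0 TPM in replicate 1 and 41.0 TPM in replicate 2, a log2 count ratio of 0.75 (0.69 to 0.80), so Tef and Dbp lay on opposite sides of 0, and Tef was above Dbp in replicate 1 but not in replicate 2.

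Kinases and ubiquitin ligases, which set the lifetime of the repressors, had 8 tested genes and none called. Csnk1a1, a casein kinase gene, stood at 34.4 TPM in replicate 1 and 81.5 TPM in replicate 2. It passed 2-fold in TPM but not by counts, where its log2 ratio was -0.31. The 7 cofactors, among them the corepressor Ncor1 at 97.6 TPM in replicate 1 and 82.0 TPM in replicate 2 and its deacetylase partner Hdac3 at 95.1 TPM in replicate 1 and 60.5 TPM in replicate 2, had 6 genes higher in replicate 1 and none called.

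Rhythmic output genes numbered 6, of which 3 were higher in each library. Nampt, which encodes the rate-limiting enzyme of NAD salvage, was called at 25.8 TPM in replicate 1 and 9.90 TPM in replicate 2, a log2 count ratio of 1.46 (1.37 to 1.55), on a transcript of 40.3% GC. Wee1, a cell cycle kinase gene with known E-boxes, was called at 1.10 TPM in replicate 1 and 3.65 TPM in replicate 2, a log2 count ratio of -1.65 (-2.04 to -1.27) from 82 and 194 counts. The highest of the list were Tspan4, at 129 TPM in replicate 1 and 153 TPM in replicate 2, and Tsc22d3, a glucocorticoid-induced gene, at 57.8 TPM in replicate 1 and 61.2 TPM in replicate 2. With the GC trend removed, Nampt stood at 0.40 and was no longer called, whereas Bhlhe41 at -2.95, Wee1 at -1.95 and Rora at 1.60 were, and Arntl2 at 1.81 and Gsk3b, a kinase gene, at -1.19 were called in addition. Bhlhe41, Cry1 and Wee1 were the 3 clock genes called under every scaling and filter tried, all higher in replicate 2. How many of all genes were called under every one was not worked out, so this count is no result about the clock genes as a group.

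**Figure D5:**
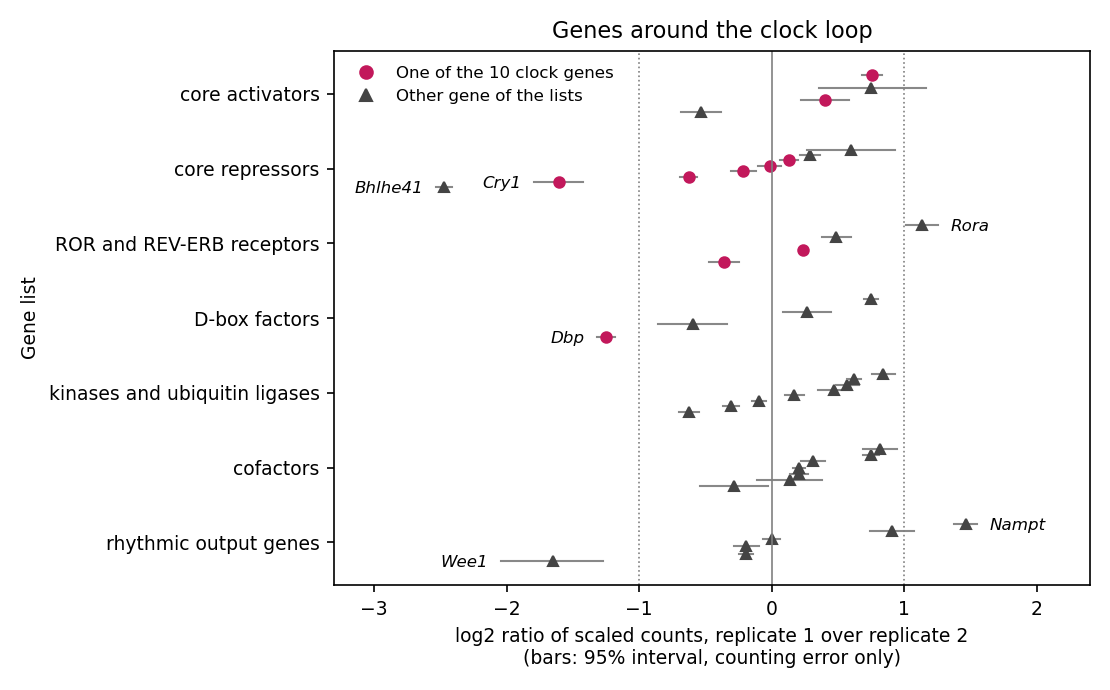
Log2 ratio of scaled counts, replicate 1 over replicate 2, for the 41 clock genes with a mean of at least 1 TPM, by list, with 95% intervals for counting error and dotted lines at 2-fold. The 6 called genes are named; Bhlhe41, Cry1, Wee1 and Dbp lie on the left, higher in replicate 2, and Nampt and Rora on the right.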

How the data were processed

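RNA levels were read from the gene and transcript tables of 2 libraries. Assembly mm10 and annotation GENCODE M4 are named in the deposited text notes, and the tools for alignment and quantification were not given in the sources used here. Per the file headers, the tables hold TPM, FPKM (used as an alternative for the order by level), effective length and expected counts. The authors' expected counts are fractional and were rounded to whole numbers for intervals. For transcripts, the authors deposited the percent of each gene taken (IsoPct). Interval bounds of TPM were deposited without a stated level and were read as a score in TPM. Contigs and junctions, on mm9, were not used here.

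Names, biotypes and exons came from GENCODE M21 (42462 of 43346 identifiers named). The log2 ratio of expected counts, replicate 1 over replicate 2, was scaled by summed counts with 95% Clopper-Pearson intervals, which cover counting error only, and a gene was called where the interval lay wholly beyond 2-fold. The background was every gene whose mean reached 1 TPM. GC content was that of the transcript with the highest mean TPM, and its trend was the median in 20 bins. Alternatives were edgeR's TMM factors (1.03 and 0.975), DESeq2 size factors (1.21 and 0.829) and totals without mitochondrially encoded genes and the listed muscle markers. Others were deposited TPM, GC removal, other filters and fold limits, and each replicate left out. The interval step was tested on simulated data. Versions were Python 3.11.15 (scipy 1.17.1, pandas 2.3.3, numpy 2.4.6, matplotlib 3.10.9) and R 4.3.3 (DESeq2 1.42.0, edgeR 4.0.16).

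The members and the gene lists were chosen with earlier results of these data known. All 10 members are named, with the called genes and the 2 highest by mean TPM of each clock list, Rorb and Fbxl21 as the 2 under the limit, and the leading transcripts and those of at least 10% of a gene. Of the genes this rule names, 2 are not reported here.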

Additional observations from a re-analysis of the deposited data

How the results depend on the processing

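With 2 libraries of 1 group, the spread between replicates rests on 2 values, and no paired analysis was possible because there is no second group. The number of clock genes called among the 10 was 2 as reported and 1 with the GC trend removed, where Dbp lay inside 2-fold. It was 3 by deposited TPM, with Nr1d2 added, and 3 with a limit of 1.5-fold. Of the 41 genes of the clock lists, 6 were called as reported, 12 with a limit of 1.5-fold and 9 by deposited TPM. With TMM or DESeq2 factors 5 were called, and Rora was lost. Of all tested genes, deposited TPM called 29.0%, TMM factors 18.2% and DESeq2 size factors 18.5%. The share of all genes beyond 1.5-fold is not given here. The counts by TPM and at 1.5-fold are therefore no result about the clock genes as a group. By FPKM in place of TPM, Per3 and Nr1d2 exchanged ranks 5 and 6. With a minimum of 5 TPM in place of 1 TPM, 8 of the 10 genes passed in both libraries. Leaving out a replicate could not change the 10 of 10 at 1 TPM, since all passed in each library. Arntl, Clock, Per1 and Per3 changed sign under 1 of 7 alternatives each and Cry2 under 4; Per2, Cry1, Nr1d1, Nr1d2 and Dbp kept theirs. Over all genes, 1052 were called higher in replicate 1 and 1626 in replicate 2 with DESeq2 size factors, against 1369 and 1266 as reported. The counts were 1990 and 890 without mitochondrial genes and the listed muscle markers in the totals, and 702 and 907 with the GC trend removed. Cry1 in replicate 1, at 337 counts, was the shallowest value among the 10 genes.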

Other observations

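Per2 had 2 transcripts in the tables, and the shorter, Per2-202 of 231 bases, took 0 counts in both libraries. The deposited posterior means nevertheless gave it 12.0% of the gene in replicate 1 and 15.2% in replicate 2. The upper bounds of its deposited TPM intervals were 3.24 in replicate 1 and 5.16 in replicate 2, and the Per2 interval of the whole gene reached above its TPM by a like amount, to 11.2 in replicate 1 and 14.9 in replicate 2.

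Beyond Nr1d2 and Rora, Csnk1a1 also had effective lengths far apart, at 3285 bases in replicate 1 and 1808 bases in replicate 2, with a log2 TPM difference of -1.24 beside a log2 count ratio of -0.31. Hlf, the D-box paralogue of Dbp, showed opposite signs, at a log2 TPM difference of -0.93 and a log2 count ratio of 0.26, with effective lengths of 2619 bases in replicate 1 and 1201 bases in replicate 2. Hlf and Csnk1a1 were singled out here after their values were seen.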
